A study of Mus musculus with 9 samples.

Results

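Expression of 10 enteric neuron and neurotransmitter genes was followed by RNA sequencing in the intestine of mouse embryos. The members were a named list: the structural and general neuronal genes Elavl4, Tubb3, Uchl1, Prph and Stmn2, the neuropeptide genes Vip and Gal, and the transmitter enzyme genes Nos1, Th and Chat. All 10 were found by symbol among the 24016 rows of the count table, and all 10 were among the 15699 genes that passed the filter on low counts and were tested.

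The enteric nervous system is a network of neurons and glia in the gut wall that arises from neural crest cells which migrate into the gut mesenchyme before birth. Its neurons lie between and beside the smooth muscle layers and control contraction, secretion and blood flow. Acetylcholine is the main excitatory transmitter to gut muscle, while nitric oxide and vasoactive intestinal peptide relax it, and different neuron classes acquire their transmitters at different times of development.

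The samples came from wild type C57BL/6 embryos at E14.5. There were 3 groups of 3 libraries: epithelial tissue and mesenchyme tissue, both with no agent, and whole intestine treated with cyclopamine, an alkaloid that inhibits Smoothened, the transducer of hedgehog signals. The series design names a 24 hour transwell culture. Neither culture of the separated layers nor pooling of embryos is stated in the labels, so replicate error here is the spread between libraries, which may be partly technical. Untreated whole intestine was not analysed here. Treatment, the presence of the other layer and any difference in culture therefore cannot be told apart in a comparison of treated intestine with either layer.

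Total counts ranged from 9739394 to 26357115 per library. Mesenchyme 1 stood apart: the ribosomal precursor Rn45s took 59.06% of its counts, and 3284702 counts were left without Rn45s, Lars2 and Mir6236, against 14122486 to 26302836 in the other libraries. Mesenchyme 2 differed in pancreas and liver genes, which summed to 120 CPM against 12.2 and 8.94 CPM in mesenchyme 1 and 3. The 10 members together took 0.0023% to 0.0709% of counts outside those ribosomal genes. Gli1, a hedgehog target that reports on the treatment, averaged 215 ± 13.8 CPM (SD, n = 3) in mesenchyme and 1.60 ± 0.87 CPM in treated intestine. The summed CPM of 16 epithelial markers was 188 to 230 in mesenchyme and 2194 to 2746 in treated intestine, so treated libraries held epithelial RNA that the mesenchyme libraries largely lacked. CPM, the usual library-size unit of counts, are scaled here by the TMM method, which assumes that most genes are level between libraries.

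All 10 members were lower in epithelium than in mesenchyme. The background in that comparison was 35.1% of all genes tested called lower, with edgeR's quasi-likelihood test and a threshold of 0.05 on the Benjamini-Hochberg adjusted p. The members' median log2 difference, epithelium minus mesenchyme, was -3.81, and the median over all genes was 0.04. For each of the 10 members the 3 epithelium values lay below the 3 mesenchyme values, which was so for 35.3% of all genes. The edgeR count of 10 lower members was the same when any 1 of the 9 libraries was left out, mesenchyme 1 and 2 included. In bulk tissue, fewer neurons and less RNA per neuron cannot be told apart.

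The structural genes come first. Tubb3, which encodes a beta tubulin of neurons, stood at 10.8, 7.06 and 6.49 CPM in epithelium 1 to 3. It stood at 102, 102 and 141 CPM in mesenchyme 1 to 3 and at 177, 177 and 174 CPM in treated intestine 1 to 3. Its 3 groups did not overlap, with treated intestine highest. The log2 difference of epithelium minus mesenchyme was -3.82 (SE 0.22; edgeR quasi-likelihood test, adjusted p = 9.8e-07).

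Elavl4 encodes HuD, an RNA-binding protein of neurons. Its values were 6.30, 3.97 and 2.86 CPM in epithelium, 67.8, 68.0 and 103 CPM in mesenchyme, and 113, 112 and 102 CPM in treated intestine. Mesenchyme 3 was above treated intestine 3, so those groups overlapped, while the epithelium libraries were far below both. The log2 difference of epithelium minus mesenchyme was -4.18 (SE 0.30; edgeR, adjusted p = 2.5e-06).

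Stmn2, a neuronal regulator of microtubules, gave 5.11, 3.97 and 2.24 CPM in epithelium, 41.6, 67.9 and 96.3 CPM in mesenchyme, and 101, 107 and 101 CPM in treated intestine. All treated libraries were above all mesenchyme libraries, and the range within mesenchyme was wider than the difference of the group means. Prph, which encodes the intermediate filament peripherin of peripheral neurons, gave 10.3, 8.24 and 4.44 CPM in epithelium, 59.6, 116 and 99.01 CPM in mesenchyme, and 94.4, 99.3 and 94.2 CPM in treated intestine. The treated values lay inside the mesenchyme range. Uchl1, whose product is the neuronal ubiquitin hydrolase PGP9.5, gave 8.59, 6.93 and 4.92 CPM in epithelium, 45.8, 85.5 and 88.5 CPM in mesenchyme, and 62.7, 62.6 and 56.4 CPM in treated intestine. Here too mesenchyme 1 was the low library of its group and treated intestine lay within the mesenchyme range. Log2 differences of epithelium minus mesenchyme were -4.19 (SE 0.36) for Stmn2, -3.58 (SE 0.33) for Prph and -3.44 (SE 0.28) for Uchl1.

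**Figure D1:**
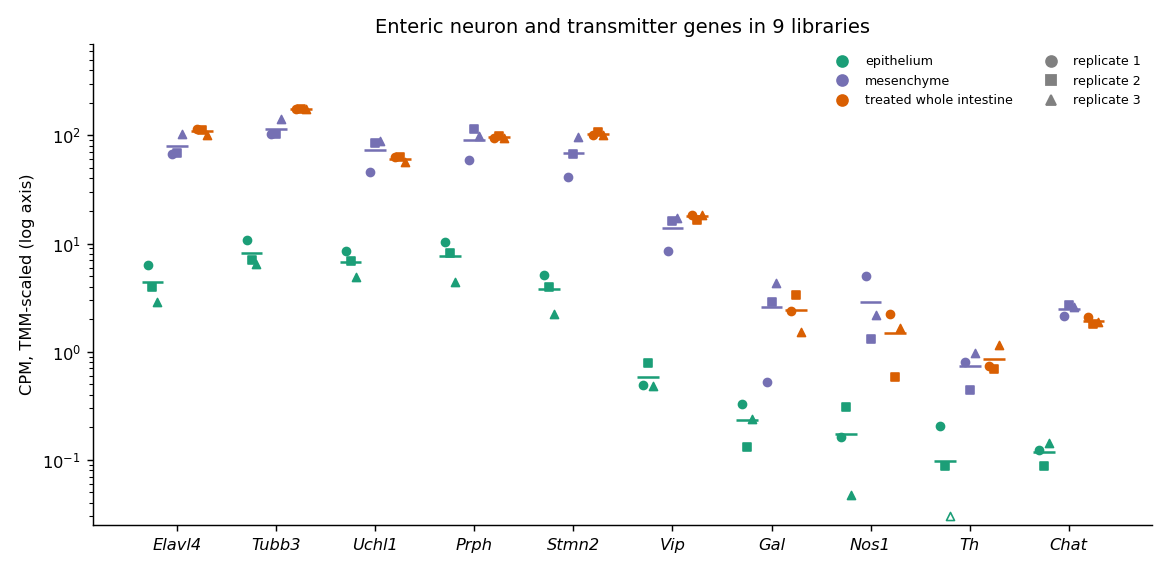
CPM (TMM-scaled, log axis) of the 10 members in each of the 9 libraries, coloured by group and shaped by replicate, with horizontal lines at group means; the open symbol is a library with 0 counts, drawn at the bottom of the plot. Epithelium lies below the other groups for every member. Levels of different genes are not compared here, since CPM are not per length.

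Of the transmitter genes, Vip encodes vasoactive intestinal peptide, a relaxing and secretion-driving transmitter of enteric neurons. It stood at 0.491, 0.785 and 0.477 CPM in epithelium (12, 18 and 10 counts), at 8.47, 16.3 and 17.3 CPM in mesenchyme, and at 18.3, 16.6 and 18.5 CPM in treated intestine. Mesenchyme 1 was low in its group, and the other 2 mesenchyme libraries overlapped with treated intestine. The log2 difference of epithelium minus mesenchyme was -4.62 (SE 0.31; edgeR, adjusted p = 2.0e-06).

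Gal encodes galanin, a neuropeptide that modulates gut muscle and transmitter release. It rested on few counts: 8, 3 and 5 in epithelium, 2, 65 and 125 in mesenchyme, and 45, 57 and 33 in treated intestine. These were 0.327, 0.131 and 0.239 CPM in epithelium, 0.530, 2.87 and 4.35 CPM in mesenchyme, and 2.39, 3.31 and 1.52 CPM in treated intestine. The 2 counts of mesenchyme 1 gave an exact Poisson 95% interval of 0.0641 to 1.91 CPM, for counting error only, below the interval of 2.21 to 3.65 CPM in mesenchyme 2.

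Chat encodes choline acetyltransferase, which makes acetylcholine. It had 3, 2 and 3 counts in epithelium, 8, 61 and 75 in mesenchyme and 39, 31 and 41 in treated intestine. In CPM these were 0.123, 0.0872 and 0.143 in epithelium, 2.12, 2.69 and 2.61 in mesenchyme, and 2.07, 1.80 and 1.89 in treated intestine. The 3 groups did not overlap, with mesenchyme highest, although mesenchyme 1 and treated intestine 1 were close. Epithelium minus mesenchyme was -4.36 on the log2 scale (SE 0.34; edgeR, adjusted p = 3.8e-06).

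Nos1 encodes the neuronal nitric oxide synthase. It had 4, 7 and 1 counts in epithelium, 19, 30 and 63 in mesenchyme and 42, 10 and 36 in treated intestine. In CPM these were 0.164, 0.305 and 0.0477, then 5.03, 1.32 and 2.19, then 2.23, 0.581 and 1.66. Mesenchyme 1 was the highest library for Nos1, with an exact Poisson 95% interval of 3.03 to 7.86 CPM that did not meet the 0.892 to 1.89 CPM of mesenchyme 2.

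Th encodes tyrosine hydroxylase, the first enzyme of dopamine and noradrenaline synthesis, which is transiently made by neural crest cells of the embryonic gut. It was near the detection limit: 5, 2 and 0 counts in epithelium, 3, 10 and 28 in mesenchyme and 14, 12 and 25 in treated intestine. A count of 0 in epithelium 3 allows up to 0.143 CPM, the level of 3 counts. Mesenchyme libraries held 0.794, 0.441 and 0.974 CPM and treated libraries 0.744, 0.697 and 1.15 CPM, with overlap. Epithelium was lower than mesenchyme by edgeR at an adjusted p of 0.0058, with a log2 difference of -2.78 (SE 0.71), which was -3.89 without epithelium 1 and -2.29 without epithelium 3.

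Levels were compared between genes only per kilobase of transcript. In mesenchyme Uchl1 and Tubb3 led with 62.2 ± 20.2 and 61.7 ± 12.1 CPM per kilobase (SD, n = 3 each), then Prph with 49.1 ± 15.5, Stmn2 with 33.1 ± 13.2 and Elavl4 with 19.8 ± 5.11. Neighbours in that order overlapped between libraries. Within each mesenchyme library, however, Elavl4 was the lowest structural gene, at 16.8, 16.9 and 25.7 CPM per kilobase in mesenchyme 1 to 3. Stmn2 was the next lowest in each, at 20.1, 32.7 and 46.5. The order of Uchl1, Tubb3 and Prph differed between the libraries and is not fixed by these data. Vip followed with 9.16 ± 3.15 CPM per kilobase, below every Elavl4 value, and Gal with 3.28 ± 2.44. Chat (0.865 ± 0.108), Th (0.403 ± 0.148) and Nos1 (0.281 ± 0.192 CPM per kilobase) were lowest, and the values of Th and Nos1 overlapped. In treated intestine the order was nearly the same, with Tubb3 alone at the top at 94.3 ± 0.84 CPM per kilobase and Prph, Uchl1 and Stmn2 overlapping at 51.5, 51.5 and 49.7.

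Promoter windows of RefSeq (build GRCm38.p6, 250 bases before to 50 after the start of the gene) were available for 9 members and not for Stmn2. Elavl4 has 4 windows, so the 9 members have 12 windows. The Elavl4 windows at chr4:110287478-110287777 and chr4:110287462-110287761 overlap, so a match in their shared bases counts in both. The windows of Vip, Th and Prph are shown as a peptide, an enzyme and a structural gene that hold a TATA box or a full cAMP response element. Vip lies on the plus strand at chr10:5638968-5639267, Th on the minus strand at chr7:142899946-142900245 and Prph on the plus strand at chr15:99054924-99055223. Capitals mark TATAAA and the cAMP response element core TGACG, or its full form TGACGTCA, on either strand.
Vip: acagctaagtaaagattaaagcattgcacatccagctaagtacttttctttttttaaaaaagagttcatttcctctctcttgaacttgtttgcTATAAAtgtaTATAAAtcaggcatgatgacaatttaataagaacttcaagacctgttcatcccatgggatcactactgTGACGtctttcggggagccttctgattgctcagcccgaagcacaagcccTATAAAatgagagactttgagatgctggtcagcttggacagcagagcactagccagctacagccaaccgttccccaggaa
Th: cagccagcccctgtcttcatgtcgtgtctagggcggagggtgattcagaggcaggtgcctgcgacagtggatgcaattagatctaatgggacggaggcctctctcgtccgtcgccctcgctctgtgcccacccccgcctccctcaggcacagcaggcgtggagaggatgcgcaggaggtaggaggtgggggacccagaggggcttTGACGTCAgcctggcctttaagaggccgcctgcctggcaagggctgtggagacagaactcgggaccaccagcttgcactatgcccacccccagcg
Prph: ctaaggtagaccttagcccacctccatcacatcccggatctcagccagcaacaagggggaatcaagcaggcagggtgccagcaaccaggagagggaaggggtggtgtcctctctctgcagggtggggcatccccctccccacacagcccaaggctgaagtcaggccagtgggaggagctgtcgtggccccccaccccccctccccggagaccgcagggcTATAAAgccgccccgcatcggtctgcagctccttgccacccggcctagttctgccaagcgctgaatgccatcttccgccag
The full element TGACGTCA, which contains the shorter core, was found in the Th window, 45 bases before the start, and in 1.79% of all 32851 windows. TGACG was found in 8 of the 12 member windows (of Elavl4, Vip, Gal, Nos1, Th and Chat) and in 20.8% of all windows. TATAAA stood 31 bases before the start of Prph and 30, 147 and 157 bases before that of Vip, and in 13.6% of all windows. The search covered 7 motifs on both strands. The E-box CANNTG was in 6 of the 12 member windows and 72.3% of all windows, and its form CAGCTG in 3 and 16.3%. The GC box GGGCGG was in 4 of the 12 and 35.7%, and the homeodomain core TAATTA in 2, both of Elavl4, and 5.29%. These matches describe letters only, and binding was not measured.

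The neuronal transcripts left in epithelium were set beside those of other mesenchymal cells. As a share of its mean level in mesenchyme, the median member stood at 8.66% in epithelium 1, 5.96% in epithelium 2 and 4.22% in epithelium 3. The 31 other neuronal genes that were lower in epithelium had medians of 10.03%, 6.51% and 6.26%. Fibroblast markers had medians of 8.55%, 2.66% and 1.26% in the same libraries, and smooth muscle markers 6.90%, 2.95% and 1.56%. Leukocyte markers had medians of 10.6%, 11.2% and 4.46%, and markers of the interstitial cells of Cajal 16.7%, 5.90% and 9.74%. Endothelial markers had medians of 6.03%, 1.95% and 1.14%. The members' median thus lay within the range of the other mesenchymal lists in each epithelium library, with no test made. In each of these libraries it was above the fibroblast, smooth muscle and endothelial medians and below the leukocyte median. The Cajal median was above it in epithelium 1 and 3 and below it in epithelium 2. Elavl4 alone stood at 7.90%, 4.98% and 3.59%, and Uchl1 at 11.7%, 9.46% and 6.71%. Enteroendocrine genes, which mark secretory cells of the epithelium that share genes with neurons, summed to 169 to 261 CPM in epithelium and 38.1 to 58.0 CPM in mesenchyme; their part in the members' epithelial level was not tested.

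Few members were told apart between cyclopamine-treated whole intestine and isolated mesenchyme. Of the 10 members, 1 was higher in treated intestine and 0 were lower by edgeR's quasi-likelihood test, with 20.8% of all genes called higher and 20.5% lower. At an unadjusted p under 0.05 and by DESeq2 the count of lower members was also 0. The median log2 difference of the members, treated minus mesenchyme, was 0.16, and that of all genes was -0.02. The member called higher was Tubb3, with 176 ± 1.58 CPM against 115 ± 22.6 (SD, n = 3 each), a log2 difference of 0.61 (SE 0.20, 95% interval 0.17 to 1.05; edgeR, adjusted p = 0.033). That call was lost when mesenchyme 1 or 2 or any treated library was left out, at adjusted p of 0.0583 to 0.0867, and in the authors' deposited table its adjusted p was 0.0840.

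The remaining structural genes did not pass the test. The log2 difference was 0.57 for Stmn2 (95% interval -0.12 to 1.26; edgeR, adjusted p = 0.16), whose treated values lay above all mesenchyme values. It was 0.45 for Elavl4 (-0.12 to 1.02), 0.06 for Prph (-0.60 to 0.71) and -0.29 for Uchl1 (-0.86 to 0.28). Without mesenchyme 1, the library rich in Rn45s, these became 0.36 for Stmn2, 0.38 for Elavl4, -0.13 for Prph and -0.49 for Uchl1. An interval that spans 0 does not show that the levels were alike, and a change of up to 1.26 on the log2 scale remains within that of Stmn2.

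None of the transmitter genes passed the test either. Vip differed by 0.30 (95% interval -0.25 to 0.85) and Th by 0.25 (-1.01 to 1.52) on the log2 scale. Gal differed by -0.27 (-1.44 to 0.89), Nos1 by -0.75 (-2.15 to 0.65) and Chat by -0.40 (-0.97 to 0.18; edgeR, adjusted p = 0.24). Chat was the member whose treated values lay below all mesenchyme values, as 26.8% of all genes did, and Stmn2 and Tubb3 were the members whose treated values lay above them, as 28% of all genes did. The Gal, Nos1 and Th intervals were the widest, and these genes had counts of 65 or fewer in all but 1 of their libraries. Chat, with 2 to 75 counts, had a narrower interval. The reason for the widths was not tested.

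**Figure D2:**
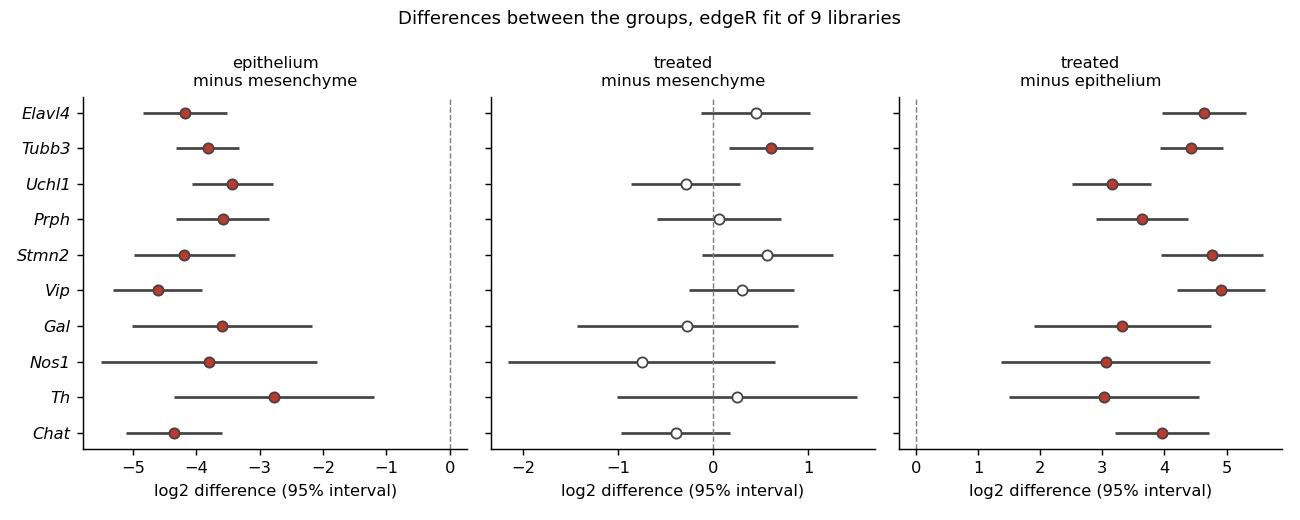
Log2 differences of the 10 members in the 3 comparisons, each as the edgeR estimate with its 95% interval; filled points passed an adjusted p under 0.05 and the dashed line marks 0. All members are far from 0 against epithelium, and Tubb3 is the filled point of treated minus mesenchyme, at 0.61.

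The members' calls depended on the scaling. When TMM was computed over the 2244 genes at least 8-fold higher in mesenchyme than in epithelium, all log2 differences rose by about 0.73. On that scale 4 members were called higher, namely Tubb3 (1.35), Stmn2 (1.32), Elavl4 (1.20) and Vip (1.05), and 0 lower, beside 31.8% of all genes called higher and 2.62% lower. Uchl1, Gal and Chat changed sign, to 0.45, 0.52 and 0.33, without passing the test. Relative to the median of all genes on that scale, 0.71, the members' median of 0.88 was 0.17 higher. A nearly equal shift of all genes leaves that distance almost unchanged by construction, so its likeness to the first scale is no further result.

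Ratios between members within a library do not depend on that scale. Relative to the mean log2 CPM of the 5 structural members, the log2 CPM of Vip stood at -2.81, -2.39 and -2.59 in mesenchyme 1 to 3 and at -2.49, -2.66 and -2.41 in treated intestine 1 to 3, which overlapped. Chat stood at -4.76, -4.95 and -5.27 in mesenchyme and -5.58, -5.80 and -5.64 in treated intestine. All treated values of Chat were lower, by 0.68 on average and by 0.57 without mesenchyme 1, on 31 to 41 counts in each treated library. Nos1 was lower by 1.20 relative to the structural genes with overlap, and by 0.48 without mesenchyme 1. Gal differed by -0.10, or -0.72 without mesenchyme 1, and Th by -0.11, or 0.19 without it.

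The structural genes also shifted against each other, in ratios that were chosen after their values were seen and carry no test. Tubb3 over Uchl1, as a ratio of CPM, was 1.26, 1.02 and 1.32 in epithelium, 2.23, 1.19 and 1.60 in mesenchyme, and 2.82, 2.83 and 3.09 in treated intestine. Stmn2 over Uchl1 was 0.595, 0.572 and 0.456 in epithelium, 0.908, 0.794 and 1.09 in mesenchyme, and 1.60, 1.71 and 1.80 in treated intestine. Elavl4 over Uchl1 was 1.48, 0.795 and 1.17 in mesenchyme and 1.81, 1.80 and 1.80 in treated intestine. For each of these 3 ratios the treated libraries were highest and did not overlap with mesenchyme. The 3 share Uchl1 as denominator, so they are not separate observations. Vip over Uchl1, with a member that is not structural, was 0.185, 0.190 and 0.195 in mesenchyme. It was 0.292, 0.265 and 0.329 in treated intestine, also without overlap. The share of all gene pairs whose ratios do not overlap was not computed. Of single genes, 28% had all treated values above and 26.8% below those of mesenchyme. Prph over Tubb3 was 0.583, 1.13 and 0.701 in mesenchyme and 0.533, 0.561 and 0.540 in treated intestine, with treated libraries below all mesenchyme libraries.

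**Figure D3:**
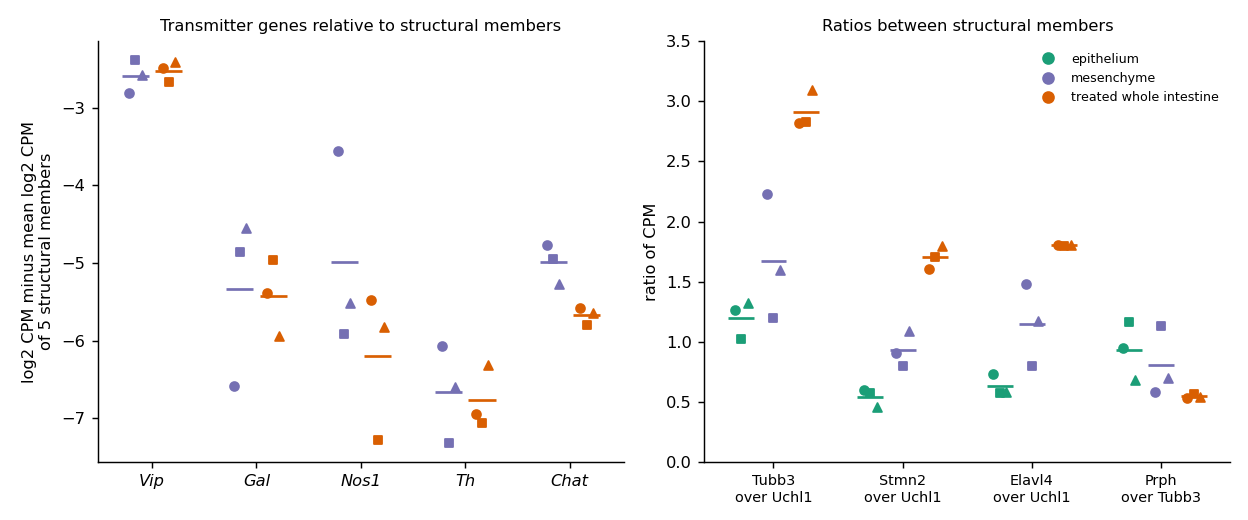
Left, log2 CPM of the 5 transmitter genes minus the mean log2 CPM of the 5 structural members in each mesenchyme and treated library; right, ratios of CPM between structural members in all 9 libraries; colours mark groups, shapes mark replicates 1 to 3 (circle, square, triangle) and lines mark means. Chat relative to the structural genes is lower in every treated library, and the 3 ratios over Uchl1 are highest in treated intestine.

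Against epithelium, all 10 members were higher in treated intestine by edgeR, where 32.1% of all genes were called higher. Log2 differences ran from 3.03 for Th to 4.91 for Vip, with a median of 3.80. The value of Th was 4.17 without epithelium 1 and 2.58 without epithelium 3. This comparison shares the epithelium libraries with the layer comparison and the treated libraries with the one above.

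Other neuronal genes were counted on the lists named here. The shares of all genes tested are the same beside every list. In epithelium against mesenchyme 35.1% of the 15699 genes were called lower. Many were called higher there too, 4619 to 5872 genes when any 1 library was left out. Counts of higher list genes in epithelium are to be read beside that number. In treated intestine against mesenchyme 20.8% were called higher and 20.5% lower, or 31.8% and 2.62% on the mesenchyme-enriched scale. Of 36 further neuronal genes 35 were tested, and 31 were lower and 2 higher in epithelium than in mesenchyme. Lower genes included Syt4, a synaptotagmin of vesicle release, at 0.643 CPM in epithelium and 20.5 CPM in mesenchyme, and Ncam1, a cell adhesion molecule, at 7.22 and 281 CPM. The higher ones were the secretory granule gene Chgb, at 101 and 8.12 CPM, and the neurofilament gene Nefh, at 4.13 and 1.35 CPM; Chgb is also on the enteroendocrine list. In treated intestine against mesenchyme, 8 of the 35 were higher and 3 lower by edgeR, a share of higher calls near the 20.8% of all genes, with a median log2 difference of 0.17 beside 0.16 for the members. On the mesenchyme-enriched scale these counts were 16 and 0.

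Among the higher genes, the light neurofilament gene Nefl stood at 10.7 ± 2.54 CPM in mesenchyme and 25.7 ± 4.67 in treated intestine (log2 difference 1.23, SE 0.25; edgeR, adjusted p = 0.0045). Nefm, the medium neurofilament gene, stood at 16.2 ± 4.52 and 37.3 ± 2.43 CPM, and Gap43, a growth cone protein gene, at 40.0 ± 12.3 and 67.0 ± 2.86 CPM; both were named after their values were seen. Others of the list did not pass, such as the filament gene Ina, also named after its values were seen, at 28.8 ± 7.16 and 37.5 ± 6.37 CPM. Ncam1 was lower in treated intestine, at 90.8 ± 2.47 CPM against 281 ± 97.5 (-1.63, SE 0.47; edgeR, adjusted p = 0.021), and its level in epithelium was 7.22 CPM. Without any 1 treated library, and on the mesenchyme-enriched scale, no gene of this list was called lower; without treated intestine 1 the higher count was 5.

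Genes that handle transmitters fell into groups. Of 26 such genes 15 were tested, and 8 were lower and 7 higher in epithelium than in mesenchyme. The lower genes included a cholinergic pair. Slc18a3, the vesicular acetylcholine transporter, stood at 0.403, 14.47 and 14.3 CPM in epithelium, mesenchyme and treated intestine, and Slc5a7, the choline transporter, at 0.520, 16.5 and 18.0 CPM. Their treated minus mesenchyme log2 differences were 0.01 (SE 0.41) and 0.12 (SE 0.23), beside -0.40 (SE 0.26) for Chat. Slc18a3 lies within the Chat locus in the RefSeq gene table, and no source used here gives how overlapping genes were counted, so reads of the pair cannot be fully told apart. The same holds for Uchl1 and its antisense gene Uchl1os, which had 4 to 108 counts in mesenchyme.

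The monoamine genes were split. Dbh, which makes noradrenaline from dopamine and so acts downstream of Th, stood at 0.028, 0.439 and 0.871 CPM in epithelium, mesenchyme and treated intestine, named after its values were seen. Ddc, which acts next after Th, was higher in epithelium (15.9 ± 2.87 CPM) than in mesenchyme (4.81 ± 0.96), and higher in treated intestine (21.0 ± 1.22 CPM) than in mesenchyme (log2 difference 2.07, SE 0.19; edgeR, adjusted p = 5.7e-05). Slc6a4, the serotonin transporter, stood at 8.36, 0.694 and 5.09 CPM. The higher calls in treated intestine against mesenchyme were Slc6a4, Maob, Ddc and Gch1, and all 4 were higher in epithelium than in mesenchyme. All 16 epithelial markers were also higher in treated intestine than in mesenchyme, and their part in these calls was not tested. The 3 lower ones were Nos2, Nos3 and Slc18a2, of which Nos2, the inducible nitric oxide synthase, stood at 14.9 ± 2.30 CPM in mesenchyme and 5.53 ± 1.00 in treated intestine. The lower count was 1 without treated intestine 2 or 3 and 0 on the mesenchyme-enriched scale. Of 11 markers of sympathetic neurons and adrenal cells, which also make catecholamines, 7 were tested, and 2 were higher and 1 lower in treated intestine than in mesenchyme. Their summed level was 73.7 to 83.1 CPM in epithelium, 86.2 to 94.3 CPM in mesenchyme and 121 to 126 CPM in treated intestine. The 2 higher genes were Ddc and Cyb561, and both were also higher in epithelium than in mesenchyme. Cyb561 stood at 49.9, 10.4 and 32.3 CPM in epithelium, mesenchyme and treated intestine. Of the markers named after their values were seen, Hand1 stood at 37.7 and 39.1 CPM in mesenchyme and treated intestine, the noradrenaline transporter gene Slc6a2 at 0.026 and 0.315 CPM, and Pnmt, the adrenaline enzyme gene, at 0 in all 9 libraries. Their part in the level of Th was not tested.

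Of 19 further neuropeptide genes 9 were tested. In epithelium 4 were lower and 1 was higher than in mesenchyme, and in treated intestine against mesenchyme 0 passed edgeR's test in either direction. Cartpt, a peptide of enteric neurons, stood at 0.379, 8.66 and 12.4 CPM in epithelium, mesenchyme and treated intestine, and Penk, the enkephalin precursor, at 2.29, 30.3 and 18.8 CPM. Tac1, the substance P precursor, was the higher gene, with 18.6 ± 3.97 CPM in epithelium and 0.516 ± 0.475 in mesenchyme. It is on the enteroendocrine list as well, of whose 20 tested genes 12 were higher in epithelium and 0 lower.

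Receptors and effectors of the members' transmitters were read alongside. Of 28 genes 23 were tested, and 19 were lower and 2 higher in epithelium. The nicotinic receptor subunits Chrna3 and Chrnb4, which neurons carry, stood at 38.0 ± 9.33 and 29.7 ± 9.21 CPM in mesenchyme and at 46.3 ± 1.51 and 27.5 ± 1.48 CPM in treated intestine. Chrm2, the muscarinic receptor of gut muscle, stood at 36.9 ± 7.48 and 28.1 ± 10.1 CPM. The nitric oxide receptor subunit gene Gucy1a3 stood at 230 ± 21.6 CPM in mesenchyme and 127 ± 9.06 CPM in treated intestine, without passing the test (log2 difference -0.86, SE 0.45; edgeR, adjusted p = 0.15).

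The 2 receptors of the Vip peptide lay in opposite layers. Vipr1 gave 24.3, 30.3 and 26.4 CPM in epithelium, 2.12, 1.94 and 2.99 CPM in mesenchyme and 16.7, 12.8 and 9.15 CPM in treated intestine. Vipr2 gave 1.02, 0.698 and 1.19 CPM in epithelium, 7.68, 7.89 and 5.81 CPM in mesenchyme and 3.67, 3.89 and 3.77 CPM in treated intestine. Neither gene overlapped between any groups. Treated minus mesenchyme was 2.41 for Vipr1 (SE 0.27; edgeR, adjusted p = 0.00017) and -0.90 for Vipr2 (SE 0.24; adjusted p = 0.014). In all, 3 receptor genes were higher and 3 lower in treated intestine, and on the mesenchyme-enriched scale 4 and 0. The higher count was 1 without mesenchyme 2 or treated intestine 3, and the lower count was 0 or 1 without any 1 treated library.

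**Figure D4:**
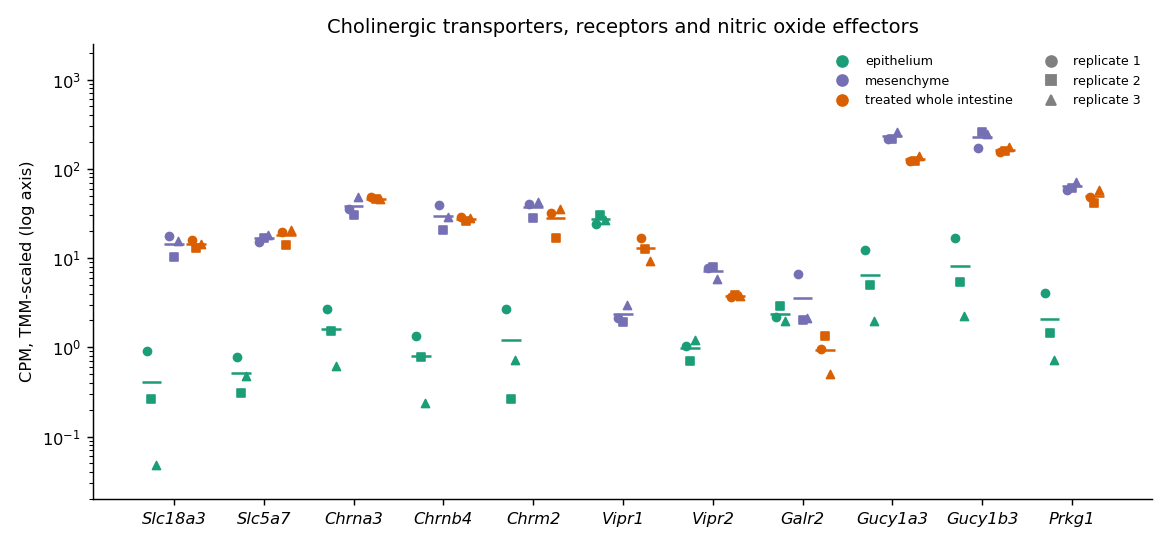
CPM (TMM-scaled, log axis) of cholinergic transporter, receptor and nitric oxide effector genes in the 9 libraries, with colours for groups, shapes for replicates and lines at group means. Vipr1 is highest in epithelium and Vipr2 in mesenchyme, while Slc18a3, Slc5a7, Chrna3 and Chrnb4 overlap between mesenchyme and treated intestine.

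Factors and precursors of the neurons were examined last. Of 24 transcription factor genes 23 were tested, and 19 were lower and 0 higher in epithelium. In treated intestine against mesenchyme 4 of the 23 were lower, including Tshz3 (90.8 ± 36.0 and 31.6 ± 1.33 CPM) and Casz1 (58.9 ± 26.5 and 22.9 ± 3.07 CPM), and 0 were higher. Of all genes tested 20.5% were called lower, so the lower count was near that share, and 20.8% were called higher. Without any 1 treated library the lower count was 1, and on the mesenchyme-enriched scale 0 were lower and 2 higher.

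Of 19 tested progenitor and glial genes, 17 were lower in epithelium, and in treated intestine against mesenchyme 4 were lower and 1 was higher. That lower count was near the share of all genes called lower, 20.5%. The endothelin receptor gene Ednrb of migrating neural crest cells stood at 499 ± 108 CPM in mesenchyme and 220 ± 43.4 in treated intestine (log2 difference -1.18, SE 0.35; edgeR, adjusted p = 0.023). The glial gene S100b, named after its values were seen, stood at 4.71 ± 1.20 and 1.96 ± 0.33 CPM. The median log2 difference of the 19 genes was -0.64, against 0.16 for the members. Lists of other mesenchymal cells were also lower in part. In treated intestine 7 of 12 fibroblast markers, 3 of 10 endothelial markers and 4 of 5 markers of the interstitial cells of Cajal were called lower. Of 10 smooth muscle markers 0 were lower, and of 10 leukocyte markers 2 were lower and 1 was higher. Foxf1 of the fibroblast list was also listed as a hedgehog response gene. Summed fibroblast markers were 9564 to 13692 CPM in mesenchyme and 4517 to 4880 CPM in treated intestine. The lower count of progenitor and glial genes was 9 without epithelium 1 and 2 without mesenchyme 3, treated intestine 1 or treated intestine 2, and on the mesenchyme-enriched scale 0, with a median of 0.07. Whether neurons and glia changed differently was not tested.

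**Figure D5:**
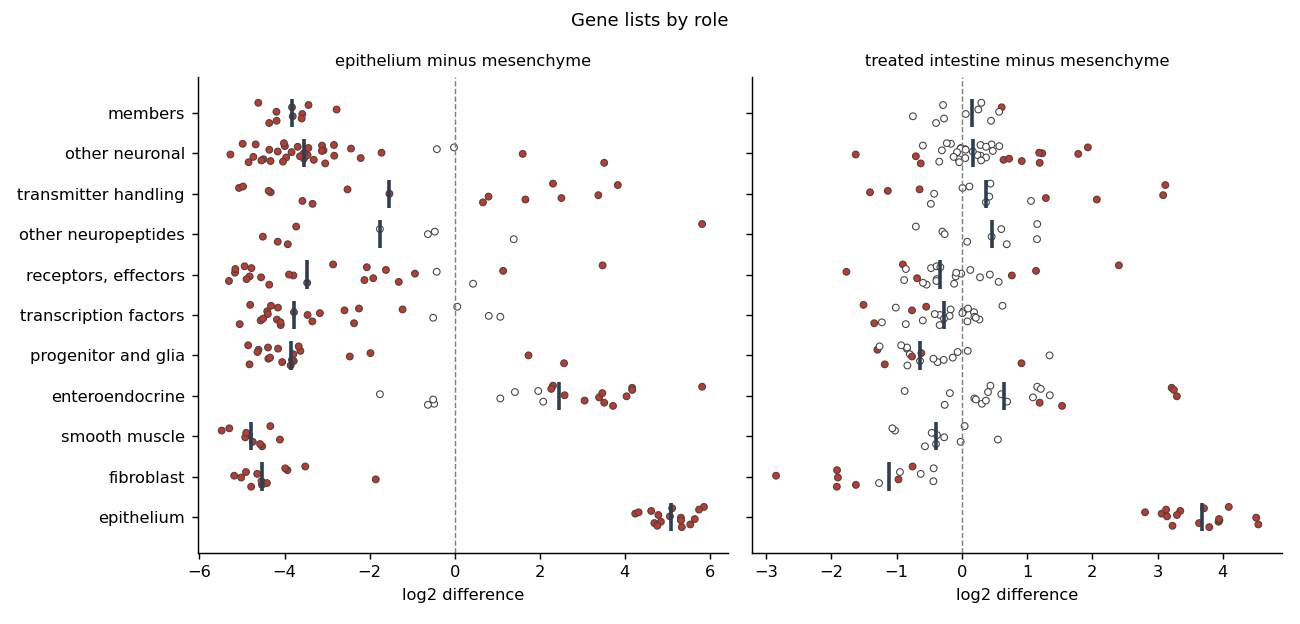
Log2 differences of each tested gene on the lists by role, epithelium minus mesenchyme on the left and treated intestine minus mesenchyme on the right; filled points passed an adjusted p under 0.05, thick lines mark list medians and dashed lines 0. The members and the other neuronal genes have medians of 0.16 and 0.17 in treated minus mesenchyme, while epithelial markers are all higher.

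The members moved together across libraries, which differ mainly by tissue. The correlation of each member's log2 CPM with the mean of the others over the 9 libraries ran from r = 0.83 for Nos1 to 0.99 for Elavl4. After group means were subtracted, r was 0.96 for Stmn2, 0.88 for Elavl4, 0.87 for Uchl1, 0.83 for Tubb3 and 0.81 for Prph, and from -0.20 for Nos1 to 0.54 for Th among the transmitter genes. Without mesenchyme 1 the latter were 0.38 for Nos1, 0.86 for Th, 0.17 for Vip, 0.07 for Gal and -0.36 for Chat, so the signs of Nos1 and Chat rest on that library. Genes outside the list with the most similar levels over the 9 libraries were Gdap1l1, Klhl8, Shisa3, Cav2, Ldhb, Ogn, Shc2 and Chrdl1, with r from 0.9956 to 0.9990 to the members' mean. Of 12153 genes compared, 1079 had r over 0.95, so the layer difference alone gives high values. Within groups the most similar genes were Syp, which encodes the vesicle protein synaptophysin (r = 0.97), then Emr1, Rnd3, Sptlc2, Gja4, 6430548M08Rik, Gdap1l1 and Fgf13. These correlations describe 9 libraries that share tissue, depth and scaling.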

How the data were processed

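RNA-seq covered 3 libraries each of epithelium, mesenchyme and cyclopamine-treated whole intestine. TopHat2 2.0.13, the mouse build mm9 and DESeq (no version) are named per the submitters' processing notes. How reads were counted, with which strand setting and annotation, is not given in the sources used here. The authors deposited whole read counts per RefSeq identifier. Beside them the authors deposited a signal (group means of counts over size factors), a ratio or fold of those means, and p-values with adjusted p-values, per the file headers. Spreadsheet software had turned 27 symbols into dates, and all 27 were named by accession.

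The deposited counts of all 9 libraries entered 1 fit with edgeR 4.0.16 (R 4.3.3). Genes passed filterByExpr at a minimum count of 10, scaling was by TMM, and the quasi-likelihood F test was two-sided, with Benjamini-Hochberg adjustment over 15699 genes at a threshold of 0.05. An SE is the log2 difference over the square root of F. Transcript lengths came from GENCODE vM21, and log2 CPM used a prior count of 2. Members, lists and tests were chosen with earlier results of these data known. Named list genes are up to 4 per list and comparison with the largest differences past the threshold at 5 CPM or more; Gli1 and the 8 most similar genes were set by the same rule, and not every gene so picked is described. Alternatives changed scaling, filter, test (DESeq2 1.42.0), libraries and covariates.

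On simulated counts for treated intestine against mesenchyme, 61% of 2-fold and 94% of 4-fold changes were recovered, with 14 false calls over 15567 genes. Only 200 genes, picked at random over all levels, were changed there, far fewer than were called in the real comparison. These rates therefore need not hold for the members, including those with few counts. Replicates differed by a chi-square of 9.04 to 56.8 per degree of freedom, so none agreed within sampling noise. Poisson intervals and floors cover counting error only, at 95%. Whether same-numbered libraries pair was not settled. A few genes picked by the rule are not reported here.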

Additional observations from a re-analysis of the deposited data

How the results depend on the processing

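Counts were lowest for Gal, Nos1, Th and Chat. In treated intestine against mesenchyme the SE of Chat, 0.256, was nevertheless near the 0.255 of Elavl4 and of Uchl1. All 10 members stayed lower in epithelium than in mesenchyme and in treated intestine under every alternative that gave a value; in the fit of 6 libraries 8 were lower, since Gal and Th failed its filter and were not tested. In treated intestine against mesenchyme, scaling on mesenchyme-enriched genes gave 4 members higher, 4995 genes higher and 412 lower, against 1, 3258 and 3211, and turned Uchl1 to 0.45, Gal to 0.52 and Chat to 0.33. That scaling shifts nearly all differences upward by its construction. Leaving out 1 library gave 0 to 1 members higher and 1972 to 3511 genes lower, and log2 differences of -0.13 to 0.26 for Prph, -0.56 to 0.24 for Gal and -0.086 to 0.70 for Th; the cause was not tested. Tubb3 kept its call under DESeq2 (adjusted p = 0.027), RLE size factors (0.048), no filter (0.034) and the fit of 6 libraries (0.011).

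Whether the replicate numbers pair the samples was not settled. Deviations of the 9 same-numbered pairs correlated at -0.20 to 0.27, and those of differently numbered pairs at -0.22 to 0.17. The largest values, 0.27, 0.22 and 0.19, were of same-numbered pairs. With a replicate block, 1 member was higher and 0 were lower in treated intestine against mesenchyme, with 3346 genes higher and 3235 lower, and Tubb3 differed by 0.61 (edgeR, adjusted p = 0.045).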
